A study of Mus musculus with 12 samples.

Results

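The 34 genes described here encode lysosomal hydrolases, their cofactors and membrane proteins, the transcription factors that act on them, and subunits of the vacuolar proton pump. They are a list of gene symbols, whose rule uses no measured value but which was drawn up with earlier results of these data known, and are 34 of the 49315 genes in the table of counts. All 34 were among the 18702 genes that passed the filter on low counts, and the lowest count of any of them in any library was 62 (Atp6v0d2 in flox MTX replicate 4). RNA was sequenced from epididymal white adipose tissue (eWAT) of male mice fed a high-fat diet (HFD, 60% fat, 12 weeks), with 1 library per mouse and 3 mice in each of 4 groups. KO mice lack the Mir181a2b2 locus in the whole body, in every cell type, and flox mice carry the floxed Mir181a2b2 allele without a Cre. Each genotype received weekly injections of vehicle or of methotrexate (MTX, 1 mg/kg), an antifolate drug. The groups are FLOX (flox, vehicle), KO (KO, vehicle), FLOX_MTX and KO_MTX.

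Lysosomes are acidic compartments in which hydrolases break down proteins, glycans and lipids taken up from outside or delivered by autophagy. The acid is made by the vacuolar ATPase, a rotary pump whose V1 sector splits ATP in the cytosol and whose V0 sector carries protons across the membrane. Most of these genes are used by nearly every cell, whereas macrophages, which digest dying adipocytes in obese fat, hold large lysosomes and also express members of their own such as Cd68 and the pump subunit Atp6v0d2.

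TFEB, TFE3 and MITF, 3 of the members, are transcription factors that bind E-box motifs in the promoters of lysosomal genes. The letters TCACGTGA, a palindrome that reads the same on both strands and contains the shorter CACGTG, were searched in the 250 bases upstream of each annotated start. RefSeq promoters (GRCm38.p6) were at hand for 28 of the 34 genes, through 37 starts. TCACGTGA was found in 5 of these 37 promoters, each of a different gene, and in 0.785% of all 32851 promoters. CACGTG was found in 8 of the 37 (those of the same 5 genes with Ctsf, Ctsl and Lamp1), and in 6.02% of all promoters. The 5 windows that hold the longer motif are shown because they are the member promoters with the form these factors are known for, and the capitals mark TCACGTGA. The windows are on chr2:164833720-164833772, plus strand, for Ctsa, on chr7:142387879-142387966, minus strand, for Ctsd, on chr8:3500433-3500518, plus strand, for Mcoln1, on chr16:44139344-44139431, minus strand, for Atp6v1a, and on chrX:134601186-134601255, minus strand, for Gla, which holds 2 copies.
Ctsa: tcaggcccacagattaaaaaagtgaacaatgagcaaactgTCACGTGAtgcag
Ctsd: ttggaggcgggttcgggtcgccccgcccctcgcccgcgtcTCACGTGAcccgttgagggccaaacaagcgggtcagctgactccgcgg
Mcoln1: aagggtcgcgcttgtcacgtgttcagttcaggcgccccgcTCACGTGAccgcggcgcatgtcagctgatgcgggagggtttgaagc
Atp6v1a: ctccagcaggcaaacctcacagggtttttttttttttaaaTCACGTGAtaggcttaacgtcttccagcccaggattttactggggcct
Gla: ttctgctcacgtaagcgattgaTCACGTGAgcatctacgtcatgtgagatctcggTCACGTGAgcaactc
The motif began 13 bases before the start in Ctsa, 46 in Mcoln1, 99 in Ctsd, 132 in Atp6v1a and 228 for the first copy in Gla. A match in these letters is a description of the promoter and not a binding site.

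Counted reads ranged from 19495310 to 23976469 per library. Values are in CPM, read counts scaled to library size with TMM factors, and are listed in the order flox vehicle replicates 1, 3 and 4, KO vehicle replicates 1, 2 and 3, flox MTX replicates 1, 2 and 4, and KO MTX replicates 2, 3 and 4. The precursors Mir181a-2 and Mir181b-2 had at most 2 counts in a library, so the deletion could not be checked in these counts. A list of 10 adipocyte markers summed to between 9638 and 47960 CPM. A list of 14 macrophage markers, which holds no member, summed to 769, 543 and 1118 CPM in FLOX, to 4036, 4289 and 6487 in KO, to 2963, 5549 and 1009 in FLOX_MTX, and to 6999, 9174 and 5720 in KO_MTX. A list of 16 epididymis markers, genes of the organ this fat pad adjoins, summed to 4512, 12420 and 1461 CPM in FLOX. Flox MTX replicate 1 followed with 480.4 CPM, and no other library exceeded 21.0 CPM. In bulk RNA, fewer cells of a type cannot be told apart from less RNA per cell, and this holds for each comparison below.

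The 34 genes together took 1.08%, 1.22% and 1.24% of the counts, before TMM scaling, in FLOX and 2.17%, 2.36% and 3.09% in KO. In FLOX_MTX they took 1.89%, 2.07% and 1.09%, and in KO_MTX 3.04%, 3.75% and 2.71%. By this share flox MTX replicate 4 stood at the level of the flox vehicle mice. With TMM scaling the 34 genes summed to 13260 CPM in it, above the 10610, 11220 and 12080 CPM in FLOX. Its macrophage list, on the scaled values, lay within the range of the flox vehicle mice. Per kilobase of exon, Psap, the precursor of the saposins that activate sphingolipid hydrolases, and Ctsd, the main aspartic protease of the lysosome, ranked first and second of the 34 in all 4 groups. Exon length was taken over all annotated exons of a gene merged, which can exceed the length of its mRNA. The ranks depend on this choice. Mitf ranked last in all 4, with a mean of 1.97 CPM per kilobase in FLOX and 6.36 in KO. Cd68 moved from rank 17 in FLOX to rank 5 in KO, and Atp6v0d2 from rank 29 to rank 14.

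The first comparison asks how eWAT of KO mice differs from that of flox mice under vehicle. Most hydrolase genes and several pump subunits were higher in KO, Cd68 and Atp6v0d2 by the most, while Ctsf and Neu1 were lower. A gene was called if its p in edgeR's quasi-likelihood test, adjusted over all 18702 genes, was below 0.1 and its fold change reached 1.5. By this rule 22 of the 34 were higher in KO, which is 64.7%, against 13.9% of all genes tested, and 2 of the 34 were lower, against 17.8%. The median log2 fold change was 1.31 for the 34 and -0.06 for all genes. In 27 of the 34 every KO library was above every flox vehicle library, which holds for 22.8% of all genes, and in 1, Ctsf, every KO library was below, against 25.2%. The spread behind these p-values was estimated in 1 model over all 12 libraries, with 3 mice in each group and 8 residual degrees of freedom. Macrophage markers moved in the same comparison, with 13 of 14 called higher and a median log2 fold change of 2.76, as did 7 of 7 fibroblast markers with a median of 1.69, 4 of 5 mast cell markers with 2.64, 5 of 6 endothelial markers with 1.13 and 2 of 3 neutrophil markers with 1.51. Called lower were 8 of 11 epididymis markers, 3 of 10 adipocyte markers and 9 of 10 testis germ cell markers, which summed to between 204 and 500.4 CPM in FLOX and between 27.6 and 33.3 in KO. Of the remaining lists, 1 of 7 lymphocyte markers and 0 of 5 mesothelial markers were called. The part of these lists in the members' differences was not tested. Without flox vehicle replicates 1 and 3, the libraries richest in epididymis transcripts, a single vehicle library was left in FLOX. Tfeb and Npc1, 2 of the 34, were then called, against 7.07% of all genes, while the median was 0.98 for the 34 and -0.01 for all genes.

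**Figure D1:**
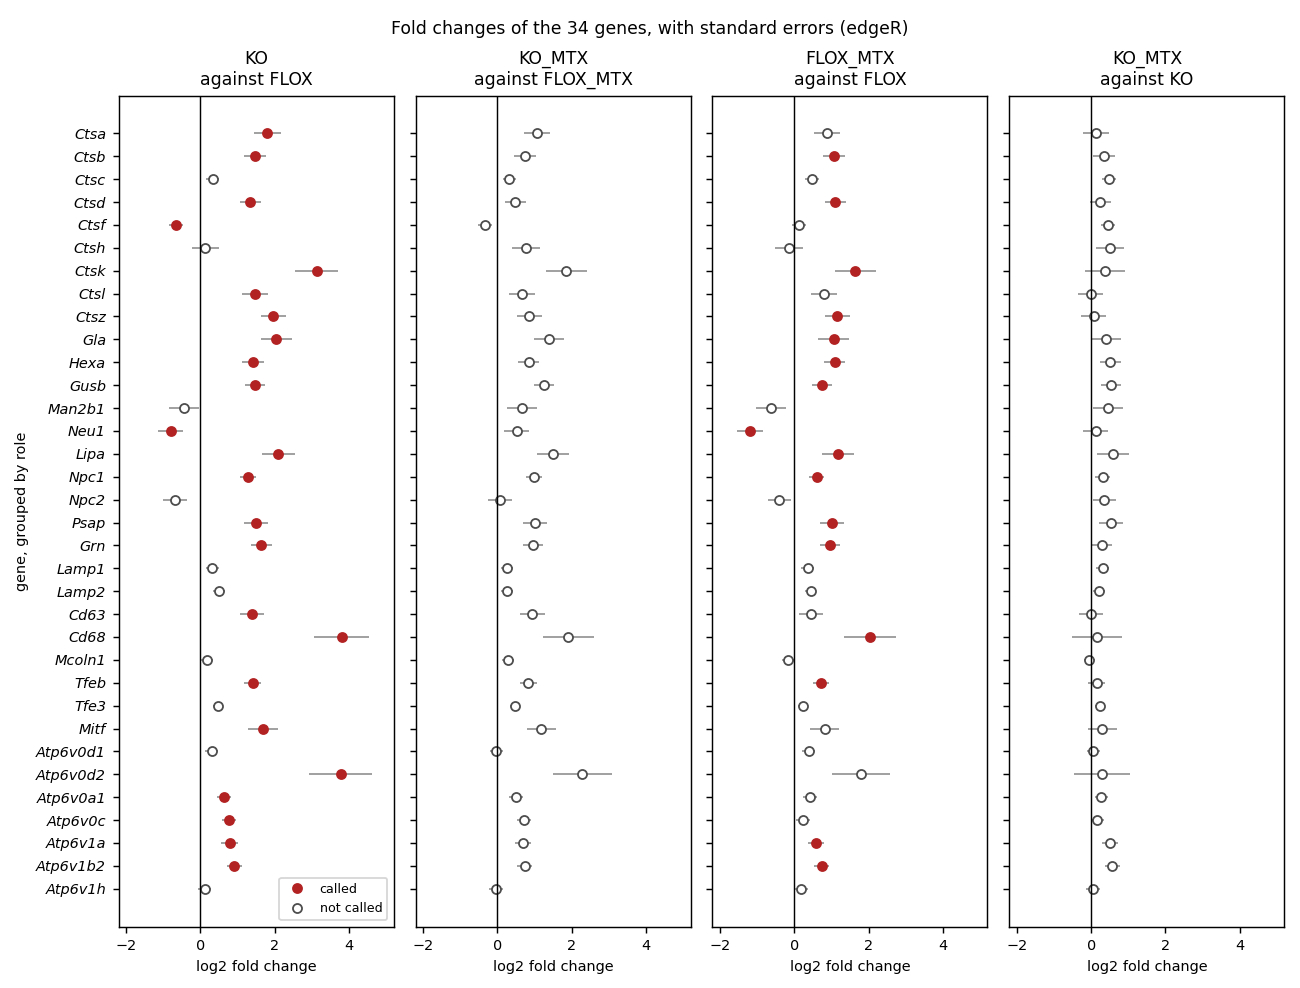
Log2 fold change (x axis) of each of the 34 genes (y axis, grouped by role) in the 4 comparisons, with bars of 1 standard error from edgeR. Filled red points are the called genes, 24 for KO against FLOX and 16 for FLOX_MTX against FLOX, and open points are not called, which is every gene in both comparisons that involve KO_MTX.

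Among the 9 cathepsins, the proteases of the lysosome, 6 were higher in KO and 1 lower. Ctsk, a cysteine protease of osteoclasts and macrophages that cuts collagen, stood at 28.0, 31.8 and 42.0 CPM in FLOX, 211, 284 and 396 in KO, 117, 175 and 27.0 in FLOX_MTX, and 292, 575 and 286 in KO_MTX. All 6 KO and KO_MTX libraries were above all 6 flox libraries, and flox MTX replicate 4 was below every vehicle mouse. The log2 fold change of Ctsk was 3.13 ± 0.575 (SE) for KO against FLOX, with an edgeR adjusted p of 0.00413.

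Ctsz, a carboxypeptidase abundant in phagocytes, stood at 205, 127 and 222 CPM in FLOX, 599, 597 and 959 in KO, 470.3, 539 and 233 in FLOX_MTX, and 748, 868 and 634 in KO_MTX. Its groups KO and FLOX did not overlap, and here each flox MTX library was above each vehicle library. Ctsz rose by 1.96 ± 0.34 on the log2 scale (edgeR adjusted p = 0.00364). Ctsz shares exon sequence with Nelfcd on the opposite strand, which reached at most 56.0 CPM.

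Ctsa, protective protein, a carboxypeptidase that also stabilizes neuraminidase and beta-galactosidase, stood at 179, 105 and 165 CPM in FLOX, 396, 463 and 707 in KO, 265, 399 and 158 in FLOX_MTX, and 528, 731 and 467 in KO_MTX. KO was above FLOX in every library, with a log2 fold change of 1.80 ± 0.36 (edgeR adjusted p = 0.00503), and flox MTX replicate 4 lay between the vehicle mice. Ctsa shares exon sequence with Pltp on the opposite strand, which reached 946 CPM, and whether counting used the strand is not given in the sources used here.

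The other called cathepsins were Ctsb, Ctsd and Ctsl. Ctsb, a cysteine protease, had a mean of 1800.0 ± 512 CPM (SD, n = 3) in FLOX and 4969 ± 884 in KO, a log2 fold change of 1.46 ± 0.30. For Ctsd the means were 1132 ± 322 and 2878 ± 590.4 CPM, and for Ctsl, which matures other hydrolases, 572 ± 197 and 1582 ± 413. Ctsc, the activator of granule serine proteases, and Ctsh, an aminopeptidase, were not called, at log2 fold changes of 0.33 ± 0.18 and 0.14 ± 0.37.

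Ctsf, a cysteine protease used in many tissues, went the other way. It stood at 74.4, 61.9 and 72.0 CPM in FLOX, 51.5, 49.1 and 31.2 in KO, 86.0, 73.0 and 69.6 in FLOX_MTX, and 64.1, 51.2 and 65.2 in KO_MTX. Each KO library was below each vehicle flox library, and the same order held between KO_MTX and FLOX_MTX. The log2 fold change of Ctsf was -0.66 ± 0.19 for KO against FLOX (edgeR adjusted p = 0.0229), a call that was lost without KO vehicle replicate 3, the lowest library.

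Of the 5 glycosidases, which trim sugars from glycoproteins and glycolipids, 3 were higher in KO and 1 lower. Gusb, beta-glucuronidase, stood at 99.8, 95.9 and 113 CPM in FLOX, 244, 252 and 358 in KO, 191, 220.5 and 106 in FLOX_MTX, and 383, 500.5 and 352.5 in KO_MTX. The KO and KO_MTX libraries were all above the 6 flox libraries. Gusb rose by 1.47 ± 0.27 on the log2 scale (edgeR adjusted p = 0.00401). Gla, alpha-galactosidase A, the enzyme missing in Fabry disease, rose from a mean of 11.01 ± 0.206 to 45.5 ± 18.9 CPM (SD, n = 3), a log2 fold change of 2.04 ± 0.42. Hexa, the alpha chain of beta-hexosaminidase, rose from 149.9 ± 23.3 to 399.9 ± 79.6 CPM, by 1.41 ± 0.29 on the log2 scale.

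Neu1, the lysosomal sialidase, stood at 94.2, 183 and 58.5 CPM in FLOX, 57.1, 63.7 and 71.7 in KO, 50.5, 61.4 and 34.7 in FLOX_MTX, and 66.2, 76.2 and 67.5 in KO_MTX. Flox vehicle replicate 3 was the highest of the 12 libraries, and KO and FLOX overlapped. The log2 fold change was -0.80 ± 0.34 with an edgeR adjusted p of 0.0995, at the edge of the rule, and it was -0.25 (adjusted p = 0.499) without flox vehicle replicate 3. Man2b1, lysosomal alpha-mannosidase, was likewise highest in flox vehicle replicate 3, with 286, 709.5 and 198 CPM in FLOX, 260, 282 and 344 in KO, 285, 320 and 165 in FLOX_MTX, and 386, 465.5 and 360.2 in KO_MTX. Its log2 fold change of -0.43 ± 0.40 was not called, and it was 0.29 without flox vehicle replicate 3.

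Lipid handling genes and lysosomal glycoproteins rose in 4 of 5 cases. Npc1, the membrane protein that exports cholesterol from the lysosome, stood at 37.4, 35.5 and 38.4 CPM in FLOX, 72.0, 84.2 and 115 in KO, 56.9, 68.1 and 43.7 in FLOX_MTX, and 107, 136 and 92.6 in KO_MTX. The flox vehicle mice lay within a narrow band, the flox MTX mice lay above it, and all KO and KO_MTX libraries were higher still. On the log2 scale KO was higher by 1.28 ± 0.21 (edgeR adjusted p = 0.00334). Npc1 shares exon sequence with Rmc1 on the opposite strand, which reached 68.2 CPM, above the level of Npc1 itself in FLOX.

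Grn, progranulin, a secreted and lysosomal glycoprotein, stood at 273, 289 and 338 CPM in FLOX, 790.5, 834 and 1169 in KO, 673, 728 and 354 in FLOX_MTX, and 1099, 1347 and 965 in KO_MTX. Its groups followed the same order as those of Npc1 without overlap between the genotypes. Grn rose by 1.63 ± 0.28 on the log2 scale (edgeR adjusted p = 0.00353). Lipa, lysosomal acid lipase, which frees cholesterol and fatty acids from lipoproteins and lipid droplets, rose from a mean of 98.3 ± 7.15 to 419 ± 116 CPM (SD, n = 3), a log2 fold change of 2.09 ± 0.45. Psap rose from 1858 ± 356 to 5276 ± 1042 CPM, by 1.505 ± 0.33 on the log2 scale.

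Npc2, the soluble cholesterol carrier that hands its load to NPC1 and is also a major secretory protein of the epididymis, did not follow its partner. It stood at 1412, 2673 and 1197 CPM in FLOX, 1328, 936 and 1033 in KO, 1674, 1090.0 and 1250.0 in FLOX_MTX, and 1606, 1101 and 1516 in KO_MTX. Flox vehicle replicate 3 was again the highest library, and KO overlapped FLOX. Npc2 was not called, at a log2 fold change of -0.68 ± 0.32 (edgeR adjusted p = 0.131).

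Ctsh, Man2b1, Neu1, Npc2, Mcoln1 and Atp6v0d2 ran in the order replicate 3, 1, 4 among the flox vehicle mice, which is the order of the epididymis list. That is 6 of 34 members, or 17.6%, against 28.0% of all genes tested. Man2b1, Neu1 and Npc2 were the only members highest in flox vehicle replicate 3 among the 12 libraries, against 24.8% of all genes. Ctsb, in contrast, was lowest in that library, at 1235 CPM against 1933 and 2233 in the other 2 vehicle flox mice. The part of epididymis RNA in the values of these genes was not tested.

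**Figure D2:**
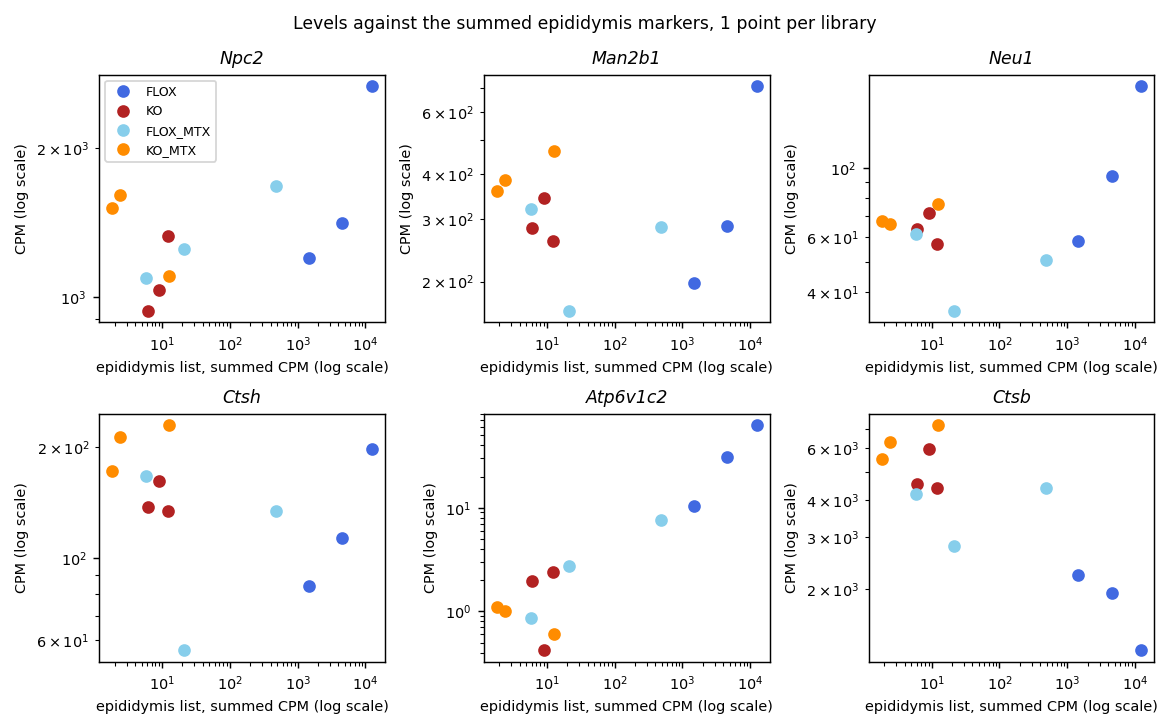
CPM of 6 genes (y axis, log scale) against the summed CPM of the 16 epididymis markers (x axis, log scale), with 1 point per library and colours for the 4 groups. Npc2, Man2b1 and Neu1 are highest in the library with 12420 CPM of the list, flox vehicle replicate 3, whereas Ctsb is lowest there and the pump isoform Atp6v1c2 is highest there at 62.7 CPM.

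The 5 membrane proteins divided. Cd68, a heavily glycosylated protein of macrophage lysosomes and a standard marker of these cells, stood at 40.6, 27.2 and 43.2 CPM in FLOX and at 353, 439 and 755 in KO. It stood at 182, 257 and 17.9 CPM in FLOX_MTX and at 540.2, 753 and 431 in KO_MTX. Both KO groups were above both flox groups in every library, and flox MTX replicate 4 was the lowest of the 12. In KO against FLOX, Cd68 rose by 3.80 ± 0.745 on the log2 scale, which is 13.9-fold, with an edgeR adjusted p of 0.00482. Cd63, a tetraspanin of lysosomes and exosomes, rose from a mean of 268 ± 21.5 to 703.5 ± 245 CPM (SD, n = 3), by 1.39 ± 0.33 on the log2 scale. Lamp1 and Lamp2, the most abundant proteins of the lysosomal membrane, had log2 fold changes of 0.32 ± 0.17 and 0.50 ± 0.16. Every KO library was above every flox vehicle library for both, and Lamp2 had an edgeR adjusted p of 0.0381 but a fold change of 1.41, below the limit of the rule. Mcoln1, the calcium channel of the lysosome, was at 0.17 ± 0.16 with overlapping groups.

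Tfeb, the master regulator of lysosomal genes, had the smallest adjusted p of the 34. It stood at 16.5, 13.7 and 15.4 CPM in FLOX, 34.3, 38.0 and 49.2 in KO, 24.4, 33.2 and 17.8 in FLOX_MTX, and 42.9, 52.6 and 39.0 in KO_MTX. The 3 flox vehicle mice were the 3 lowest libraries, the flox MTX mice came next, and the KO and KO_MTX mice were highest. The log2 fold change was 1.41 ± 0.23 (edgeR adjusted p = 0.00313). Mitf, which drives lysosomal genes in macrophages, osteoclasts and melanocytes, stood at 16.2, 8.71 and 11.8 CPM in FLOX, 32.4, 35.8 and 49.9 in KO, 19.6, 34.2 and 10.6 in FLOX_MTX, and 44.7, 65.4 and 35.9 in KO_MTX. KO was above FLOX in every library, and flox MTX replicate 2 reached into the range of KO. The log2 fold change of Mitf was 1.69 ± 0.40 (edgeR adjusted p = 0.00947). Tfe3, the most broadly expressed of the 3, stood at 43.5, 44.2 and 52.5 CPM in FLOX, 58.7, 63.1 and 72.7 in KO, 54.2, 59.0 and 52.1 in FLOX_MTX, and 79.5, 82.9 and 67.2 in KO_MTX. KO was again above FLOX throughout, but the log2 fold change of 0.47 ± 0.13 (edgeR adjusted p = 0.0206) was below the fold limit.

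In the proton pump, 3 of 4 V0 members and 2 of 3 V1 members were higher in KO. The d subunit of V0, which joins the membrane sector to the central stalk, is made from Atp6v0d1 in most cells and from Atp6v0d2 in macrophages, osteoclasts, kidney and epididymis. Atp6v0d2 stood at 19.2, 19.6 and 15.5 CPM in FLOX, 161, 210.4 and 376 in KO, 74.2, 111 and 3.87 in FLOX_MTX, and 288.5, 402.5 and 229 in KO_MTX. Every KO and KO_MTX library was above every flox library, and flox MTX replicate 4 was far below the rest. Atp6v0d2 rose by 3.78 ± 0.85 on the log2 scale (edgeR adjusted p = 0.00766). Atp6v0d1 stood at 126, 111 and 140 CPM in FLOX, 156, 150.1 and 159 in KO, 192, 124 and 176 in FLOX_MTX, and 174, 154 and 157 in KO_MTX. Its KO libraries were just above those of FLOX, and the log2 fold change of 0.30 ± 0.17 was not called (edgeR adjusted p = 0.195).

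Per kilobase of exon, the level of Atp6v0d2 was 10.1%, 11.7% and 7.31% of that of Atp6v0d1 in FLOX and 68.4%, 92.6% and 156% in KO. In FLOX_MTX it was 25.5%, 58.9% and 1.45%, and in KO_MTX 110%, 173% and 96.4%. With these merged exon lengths, the d2 form was below d1 in each flox mouse and above it in KO vehicle replicate 3 and KO MTX replicates 2 and 3.

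Of the other 5 pump members, 4 were called higher in KO. Atp6v0a1, a proton channel subunit, Atp6v0c, the ring subunit, Atp6v1a, the catalytic subunit, and Atp6v1b2, the B subunit of most tissues, had log2 fold changes of 0.64 ± 0.19, 0.77 ± 0.19, 0.78 ± 0.22 and 0.91 ± 0.20, all called. Without KO vehicle replicate 3 the calls of all but Atp6v1b2 were lost. Atp6v0c and Atp6v1a, at 0.554 and 0.545 (edgeR adjusted p = 0.0434 and 0.0901), then missed only the fold limit, and Atp6v0a1, at 0.495 (0.103), missed both limits. Atp6v0a1 also missed the fold limit without flox vehicle replicate 1, at 0.568 (edgeR adjusted p = 0.0853). Atp6v1h, a regulatory subunit of V1, was at 0.11 ± 0.18, with 92.6, 101 and 116 CPM in FLOX and 110.1, 93.6 and 130.4 in KO.

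**Figure D3:**
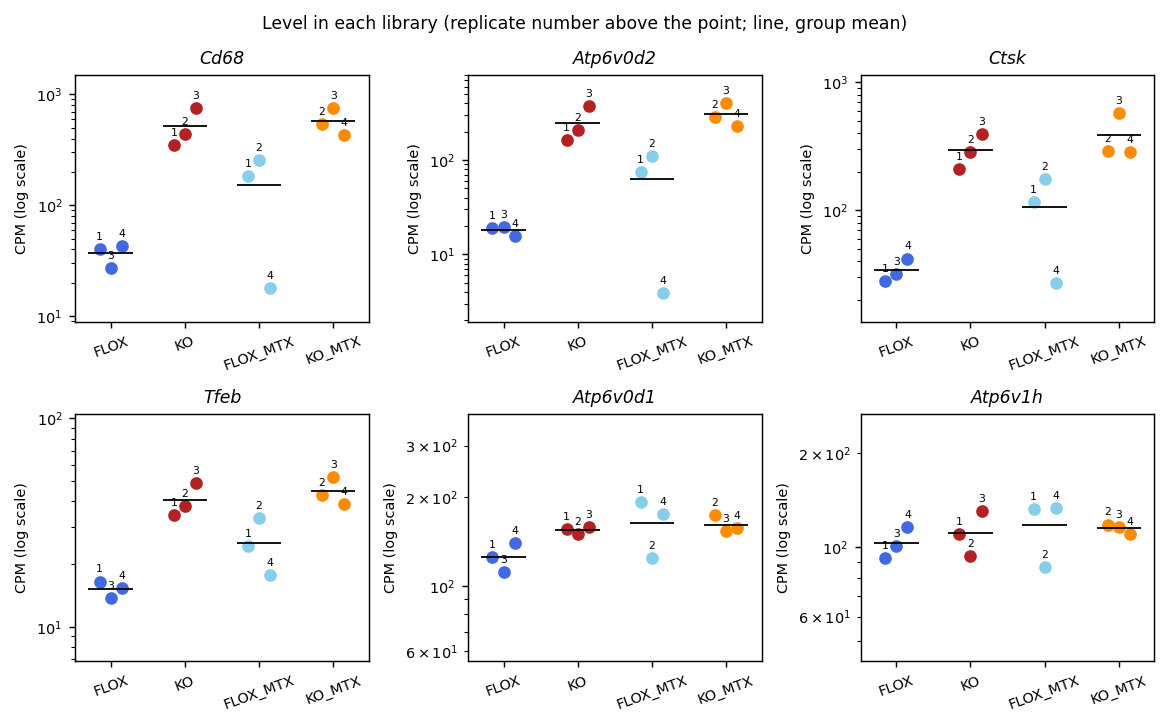
CPM (y axis, log scale) of 6 genes in each of the 12 libraries by group (x axis), with the replicate number above each point and a line at the group mean. Cd68, Atp6v0d2, Ctsk and Tfeb are higher in all KO and KO_MTX libraries than in all flox libraries, with flox MTX replicate 4 at 17.9 CPM of Cd68 and 3.87 CPM of Atp6v0d2, whereas the groups overlap for Atp6v1h.

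The members were also divided by where they are known to be expressed: 2 restricted largely to macrophages and osteoclasts among the cells of fat (Cd68 and Atp6v0d2), 9 broadly expressed but enriched in phagocytes (Ctsb, Ctsc, Ctsd, Ctsh, Ctsk, Ctsz, Lipa, Grn and Mitf) and 23 broadly expressed. The median log2 fold change for KO against FLOX was 3.79 in the restricted class, 1.63 in the enriched class and 0.77 in the broad class. Called higher were 2 of 2, 7 of 9 and 13 of 23, beside 13.9% of all genes, and both genes called lower were broadly expressed. The broad class ranged from -0.80 for Neu1 to 2.04 for Gla, so that it overlapped the enriched class, which ranged from 0.14 for Ctsh to 3.13 for Ctsk. The difference between the classes was not tested.

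Set against the macrophage list in the same library, Cd68 was 5.28%, 5.01% and 3.87% of the summed list in FLOX and 8.75%, 10.2% and 11.6% in KO. In KO_MTX it was 7.72%, 8.21% and 7.54%, and in FLOX_MTX 6.16%, 4.63% and 1.77%. Lipa was 13.7%, 16.8% and 8.75% of the list in FLOX and 8.21%, 8.78% and 8.48% in KO, and Psap was 243%, 276% and 198% in FLOX and 114%, 111% and 99.8% in KO. In FLOX_MTX Lipa was 8.18%, 6.22% and 7.43% and Psap 138%, 87.8% and 225%. In KO_MTX Lipa was 8.67%, 8.64% and 8.34% and Psap 105%, 97.5% and 113%. Atp6v0d2 was 2.5%, 3.62% and 1.39% in FLOX and 4.0%, 4.91% and 5.79% in KO. It was 2.51%, 1.99% and 0.384% in FLOX_MTX and 4.12%, 4.39% and 4.01% in KO_MTX. Ctsk overlapped under vehicle, at 3.65%, 5.85% and 3.76% in FLOX and 5.23%, 6.61% and 6.1% in KO. Under vehicle and relative to these markers, Cd68 and Atp6v0d2 were thus higher in KO. Psap was lower there, and Lipa ran at the lower end of its flox vehicle values.

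**Figure D4:**
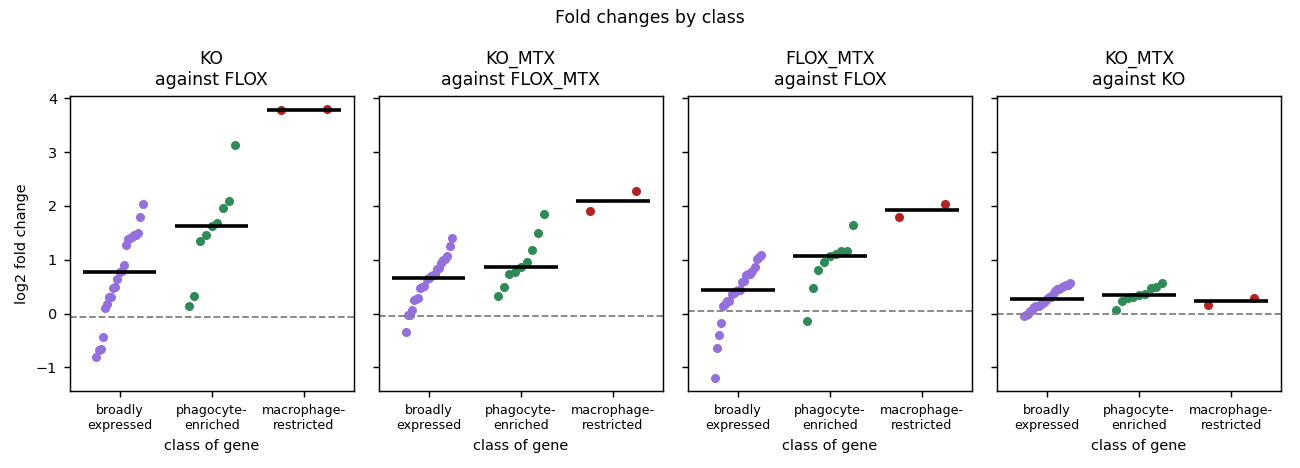
Log2 fold change (y axis) of the members by class (x axis) in the 4 comparisons, with 1 point per gene, a black line at the median of the class and a dashed line at the median of all genes tested. For KO against FLOX the class medians are 0.77, 1.63 and 3.79 from broadly expressed to macrophage-restricted, and for KO_MTX against KO they lie between 0.23 and 0.35.

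The next comparison asks whether the genotypes differ under MTX. By the same rule 0 of the 34 were called for KO_MTX against FLOX_MTX, as were 0.0% of all genes by edgeR, where the smallest adjusted p was 0.104. DESeq2 called 19 of the 34, all higher in KO_MTX, and 14.8% of all genes. At an unadjusted p below 0.05, 21 of the 34 were higher in KO_MTX, against 11.5% of all genes, and in 26 of the 34 every KO_MTX library was above every flox MTX library, against 14.8%. The median log2 fold change of the 34 was 0.74, and by class it was 2.10, 0.86 and 0.65 from restricted to broad. Gusb and Npc1, at 1.26 ± 0.27 and 0.99 ± 0.21, had the smallest p-values of the 34 (adjusted p = 0.104 for both, edgeR), and Atp6v0d2 and Cd68 the largest changes, at 2.28 ± 0.79 and 1.91 ± 0.69. Without flox MTX replicate 2, 19 of the 34 were called, against 20.8% of all genes. Without flox vehicle replicate 3, 5 were called (Atp6v0c, Atp6v1b2, Gusb, Npc1 and Tfeb), against 5.4%.

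The comparison of FLOX_MTX with FLOX asks what the drug changes in flox mice. Of the 34, 15 were called higher in FLOX_MTX, against 8.09% of all genes, and Neu1 was called lower, against 16.1%. Marker lists moved in this comparison too. Called higher were 13 of 14 macrophage markers, with a median log2 fold change of 1.97, 3 of 3 neutrophil markers with 2.02, 4 of 7 lymphocyte markers with 1.91, 4 of 5 mesothelial markers with 1.78 and 4 of 7 fibroblast markers with 1.04. Called lower were 8 of 11 epididymis markers and 9 of 10 testis germ cell markers, the latter summing to between 13.0 and 44.9 CPM in FLOX_MTX. No adipocyte, endothelial or mast cell marker was called, and the part of these lists in the members' differences was not tested. The largest rises among the called members were those of Cd68 at 2.04 ± 0.69 (edgeR adjusted p = 0.0616), Ctsk at 1.65 ± 0.545 (0.0567), Lipa at 1.17 ± 0.43 (0.0821) and Ctsz at 1.16 ± 0.33 (0.0342). Ctsd and Hexa, with smaller spread, had the smallest adjusted p, 0.0225 and 0.0264. Atp6v0d2 rose by more than Ctsk but was not called, at 1.80 ± 0.785 (edgeR adjusted p = 0.131). By class the medians were 1.92, 1.08 and 0.44, and 1 of 2, 6 of 9 and 8 of 23 were called higher. In 13 of the 34 every flox MTX library was above every vehicle library, against 10.9% of all genes.

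The 3 flox MTX mice differed. Replicate 1 was above every flox vehicle library in 29 of the 34 genes, against 33.8% of all genes, and replicate 2 in 25, against 32.9%. Replicate 4 was so in 15, which is 44.1%, against 34.9%. Replicate 4 was the lowest of its group in 29 of the 34, against 34.6% of all genes. It was below every flox vehicle library in 10, among them Cd68, Atp6v0d2, Ctsk and Lipa, a share of 29.4% that is near the 34.3% of all genes. Its macrophage list of 1009 CPM lay within the range of the vehicle mice. Without it 22 of the 34 were called, against 25.4% of all genes. Without flox vehicle replicate 3, 1 of the 34, Ctsd, was called, against 11.7%, and without flox vehicle replicates 1 and 3 together 0 were, against 2.9%. In the 6 libraries of this comparison alone edgeR called 0 of the 34, against 12.2% of all genes, with 13 of the 34 at an unadjusted p below 0.05, against 24.0%. Neu1 fell by 1.196 on the log2 scale (adjusted p = 0.0343, edgeR), and by 0.64 (adjusted p = 0.147) without flox vehicle replicate 3.

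**Figure D5:**
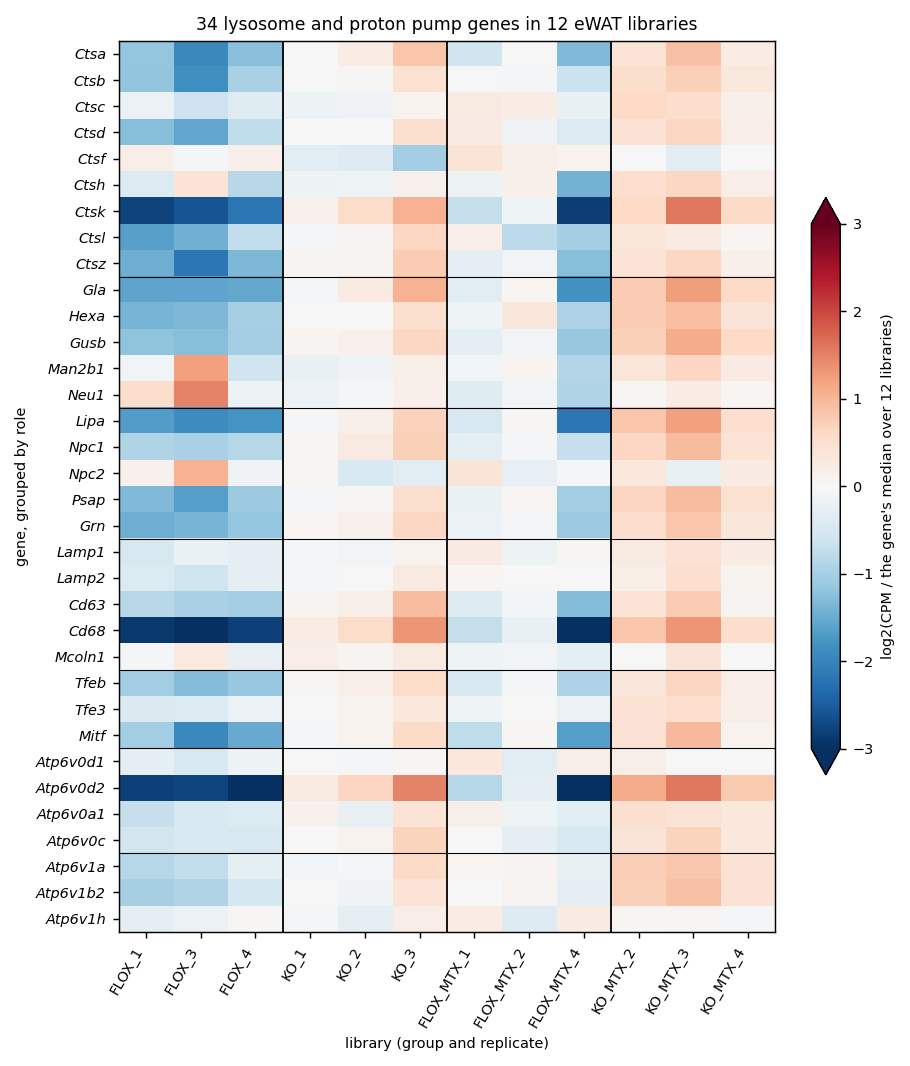
Level of the 34 genes (rows, grouped by role) in the 12 libraries (columns), as log2 of CPM over the gene's median across the libraries, in red above and blue below it. Flox vehicle libraries and flox MTX replicate 4 are blue for most rows, and KO replicate 3, highest of its group in 32 of 34 genes (37.1% of all genes), and KO MTX replicate 3, highest in 27 (39.7%), are the reddest.

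The comparison of KO_MTX with KO asks the same in KO mice. By the rule 0 of the 34 and 0.0% of all genes were called for KO_MTX against KO with edgeR, and DESeq2 called 0 of the 34 and 1.5% of all genes. At an unadjusted p below 0.05, 4 of the 34 (Ctsc, Ctsf, Atp6v1a and Atp6v1b2) were higher in KO_MTX, against 3.42% of all genes, and in 5 of the 34 every KO_MTX library was above every KO library, against 11.2%. The median log2 fold change was 0.30, with 31 of the 34 above 0, against 48.3% of all genes, and it was 0.23, 0.35 and 0.28 by class from restricted to broad. Cd68 was at 0.16 ± 0.665 and Atp6v0d2 at 0.30 ± 0.76. Atp6v1b2 had the largest of the 4, at 0.57 ± 0.20 (edgeR adjusted p = 0.468).

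The interaction asks whether the drug effect differs between the genotypes, as the drug effect in KO minus that in flox mice. With edgeR 0 of the 34 were called, against 0.989% of all genes, and with DESeq2 also 0, against 6.67%. At an unadjusted p below 0.05, Neu1 was above 0 (1.32 ± 0.48, edgeR adjusted p = 0.242), against 9.58% of all genes, and Ctsz was below (-1.10 ± 0.47, edgeR adjusted p = 0.30), against 5.45%. The interaction was below 0 in 27 of the 34, against 53.6% of all genes, with a median of -0.31, and reached -1.89 ± 0.95 for Cd68 and -1.497 ± 1.08 for Atp6v0d2. A difference in the drug effect between KO and flox mice was thus not shown for any of the 34 at this number of mice, although Cd68 passed the rule without flox MTX replicate 4, as did 0.611% of all genes, and Neu1 without flox vehicle replicate 4, as did 7.07%.

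Across all 12 libraries, 10 members (Ctsk, Ctsz, Gusb, Npc1, Grn, Cd63, Cd68, Tfeb, Atp6v0d2 and Atp6v0c) had every KO and KO_MTX library above every FLOX and FLOX_MTX library, which is 29.4% of the 34 and holds for 4.88% of all genes tested. They come from each role other than the V1 sector.

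Other genes of the pathway were taken from lists of 41 further lysosomal enzymes and membrane proteins and 17 further pump subunits and accessory proteins. Of the 41, 16 were called higher in KO than in FLOX, against 13.9% of all genes, and 0 lower, against 17.8%. The largest rises were those of Gpnmb, a glycoprotein of macrophages in fat, by 4.22 ± 1.02 on the log2 scale, Ctss, a cathepsin of antigen-presenting cells, by 3.16 ± 0.60, and Lgmn, legumain, an asparaginyl endopeptidase, by 2.28 ± 0.50. Under MTX in flox mice 10 of the 41 were called higher, against 8.09% of all genes, and 1 lower, against 16.1%.

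Of the 17 further pump genes, 5 were called higher in KO, against 13.9% of all genes, and 4 lower, against 17.8%. Tcirg1, the a3 subunit of osteoclasts and macrophages, rose by 2.72 ± 0.47, Atp6ap2, the prorenin receptor, by 0.95 ± 0.21 and Atp6v1f by 0.72 ± 0.16. Among the genes that fell were 3 isoforms known from acid-secreting cells such as the clear cells of the epididymis. Atp6v1c2 stood at 30.8, 62.7 and 10.5 CPM in FLOX, 2.42, 1.95 and 0.42 in KO, 7.69, 0.86 and 2.75 in FLOX_MTX, and 1.00, 0.61 and 1.09 in KO_MTX. Its mean was 21.7-fold lower in KO. Atp6v1b1 stood at 4.55, 6.67 and 1.24 CPM in FLOX and Atp6v1g3 at 12.9, 22.5 and 3.09, and both were at or under 3 counts in every KO library, so that they were at least 28.8-fold and at least 90.8-fold lower with each KO library set to 3 counts. All 3 followed the order of the epididymis list among the flox vehicle mice, as did 28.0% of all genes tested. Atp6v0a4, another isoform known from such cells, was not called, at 6.02, 8.04 and 4.425 CPM in FLOX and 3.62, 2.92 and 2.48 in KO. It too ran in that order among the flox vehicle mice, but was highest in flox MTX replicate 2, at 11.35 CPM. Atp6v0e2, the remaining pump gene called lower, did not run in that order. Its levels were 66.1, 44.0 and 67.6 CPM in FLOX and 37.25, 19.4 and 11.3 in KO. The part of epididymis RNA in the values of these genes was not tested either.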

How the data were processed

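Per the labels, the authors used Trimmomatic 0.36 for trimming, STAR 2.5.2b for alignment to GRCm38 and featureCounts of Subread 1.5.2 for counting, and deposited raw counts per Ensembl gene, not normalized. The strand setting and the handling of reads with several matches are not given in the sources used here. The methods name ribodepletion and the labels polyA RNA, and which applies is not known. Symbols and exon lengths come from GENCODE and were found for 99.3% of genes, and rows without a symbol held 0.0688% of the counts.

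Counts were filtered by group with filterByExpr (18702 genes) and TMM-normalized, and 1 model with a coefficient per group was fitted to the 12 libraries with glmQLFit and glmQLFTest of edgeR 4.0.16 in R 4.3.3 (common dispersion 0.10, 8 residual degrees of freedom), with Benjamini-Hochberg adjustment. Calls needed an adjusted p below 0.1 together with a fold change of 1.5 or more. Marker sums are in CPM on the same scale. The limit of a zero count was set at 3 counts and covers counting error only. The members and the gene lists were chosen with earlier results of these data known, and the classes by expression come from general knowledge of the genes. Full values are given for Cd68, Atp6v0d2, Atp6v0d1, the 3 transcription factors and the 8 called genes with the smallest adjusted p for KO against FLOX, and for Ctsf, Neu1, Man2b1 and Npc2, which were added after their values were seen. In the other lists, the 3 largest rises and falls among called genes are named. Atp6v0a4 is given as another isoform of acid-secreting cells, and Atp6v0e2 as the remaining pump gene called lower.

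Results were recomputed with DESeq2 1.42.0, with RLE factors or library size alone, with other filters and limits, with a replicate block, within single comparisons, and with libraries left out. In a simulation of KO against FLOX that changed 200 of 18702 genes 4-fold, edgeR recovered 143 with 14 unchanged genes called, and DESeq2 160 with 80. The simulated counts used edgeR's own dispersions, with all other genes equal in the 4 groups. In the data 31.7% of genes were called in this comparison, so the simulated rates need not hold there. Replicate numbers were not treated as pairs in the main model. The median residual correlation was 0.035 (from -0.273 to 0.254) in 12 same-numbered pairs. It was 0.011 (from -0.379 to 0.454) in 42 pairs of other numbers, and with so few mice these values cannot show whether mice were paired. No 2 libraries of a group were duplicates.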

Additional observations from a re-analysis of the deposited data

How the results depend on the processing

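Over 101 fold changes and 2211 alternative values, 1973 kept their direction and side of the rule, 146 lost a call, 57 gained one and 35 changed sign, and the cause was not tested. For KO against FLOX, 24 members were called and 19 to 25 with single libraries left out, but 2 without flox vehicle replicates 1 and 3, where 1 vehicle library was left and was assumed to vary like the other groups. For KO_MTX against FLOX_MTX, 0 became 19 with DESeq2, 8 with no filter, 12 with a minimum of 10 counts in each library, and 0 to 19 with libraries left out. For FLOX_MTX against FLOX, 16 became 8 at an adjusted p below 0.05, 7 with library size alone, 8 with the replicate block, 0 in the comparison's libraries alone or without flox vehicle replicates 1 and 3, and 1 to 22 with libraries left out (9 if that was flox vehicle replicate 1, 8 if flox MTX replicate 1 or 2). The interaction gave 0 to 1 with libraries left out. Library size alone moved the median of all genes from 0.05 to -0.15 for FLOX_MTX against FLOX, and its calls from 1513 higher and 3015 lower to 766 and 3607. It moved the median from -0.04 to 0.12 for KO_MTX against FLOX_MTX.

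With the replicate block, Ctsh was -0.073 for KO against FLOX, Ctsf -0.005 for FLOX_MTX against FLOX and the Tfe3 interaction -0.029 (-0.027 with no filter). With library size alone, Ctsf was -0.065 and Atp6v1h -0.036 for FLOX_MTX against FLOX. Without flox vehicle replicates 1 and 3, KO against FLOX gave Man2b1 0.578, Neu1 0.14 and Atp6v1h -0.052, and FLOX_MTX against FLOX gave Ctsh 0.512, Man2b1 0.376, Npc2 0.166 and Mcoln1 0.096. With single libraries left out, KO against FLOX ran from -0.097 to 0.554 for Ctsh, -0.747 to 0.286 for Man2b1 and -0.008 to 0.233 for Atp6v1h. FLOX_MTX against FLOX ran from -0.453 to 0.275 for Ctsh, -0.949 to 0.084 for Man2b1 and -0.604 to 0.036 for Npc2. KO_MTX against KO ran from -0.069 to 0.424 for Ctsa, -0.038 to 0.637 for Ctsk, -0.059 to 0.329 for Ctsz and -0.086 to 0.539 for Cd68, and the Tfe3 interaction from -0.095 to 0.085.

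The replicate block left the member counts of the other 4 comparisons as they were. Over all genes, it moved the calls of FLOX_MTX against FLOX from 4528 to 2771 and of the interaction from 185 to 0. For KO_MTX against FLOX_MTX, 0 calls over all genes became 2769 with DESeq2, 875 with no filter and 1491 with a minimum of 10 counts in each library. The lowest count of a member in any library was 62, above the 3 counts taken as the limit of detection.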
